A study of Mus musculus with 8 samples.

Results

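The Polo-like kinases are a family of 5 mouse genes, Plk1 to Plk5, and their mRNAs were measured on 8 microarrays of embryonic stem cells. The members were all non-control probes whose accession maps to one of these 5 genes in RefSeq, which gave 5 probes for 5 genes, of 20972 genes named through RefSeq and 55681 probes on the array. Every member had 1 probe, which was well above background on all 8 arrays and saturated on none. The family was picked with its values over these samples already known, so those values are given as a description and no test of them is reported.

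Of the family, Plk1 to Plk4 are serine/threonine kinases that carry a kinase domain and, towards the other end of the protein, polo-box sequences that dock them on partner proteins. Plk1 drives entry into mitosis, maturation of the centrosome, attachment of chromosomes and cytokinesis, and Plk4 (also called Sak) starts the duplication of centrioles. Plk2 (Snk, serum-inducible kinase) and Plk3 (Fnk, FGF-inducible kinase) were first described as early response genes, whose mRNAs appear soon after growth factor stimulation and turn over fast. Plk5 is the least studied of the family and is known mainly from brain.

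The promoters of the 3 members whose values differed most between the 4OHT and vehicle arrays are shown first, because these genes are known for different kinds of transcriptional control. Each stretch runs from 250 bases before to 50 bases after the annotated start, read from RefSeq's GRCm38.p6 sequence in the direction of the gene. In Plk1, at chr7:122159185-122159484 on the plus strand, capitals mark TTTGAA, the cell cycle homology region of mitotic genes, with its first base at 31 after the start, and CCAAT, with its first base at -14.
Plk1: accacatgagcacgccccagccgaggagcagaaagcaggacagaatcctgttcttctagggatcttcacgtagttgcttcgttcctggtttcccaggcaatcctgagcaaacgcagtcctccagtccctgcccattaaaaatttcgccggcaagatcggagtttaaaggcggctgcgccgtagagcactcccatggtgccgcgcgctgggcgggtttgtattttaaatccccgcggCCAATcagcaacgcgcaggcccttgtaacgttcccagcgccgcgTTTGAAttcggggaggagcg
In Plk2, at chr13:110394794-110395093 on the plus strand, capitals mark TGACGTCA, the full cyclic AMP response element, with its first base at -62, and a TGACG on the opposite strand, which reads CGTCA here. In Plk3, at chr4:117133914-117134213 on the minus strand, capitals mark 2 copies of TGACG, the short form of that element, with their first bases at -132 and -63.
Plk2: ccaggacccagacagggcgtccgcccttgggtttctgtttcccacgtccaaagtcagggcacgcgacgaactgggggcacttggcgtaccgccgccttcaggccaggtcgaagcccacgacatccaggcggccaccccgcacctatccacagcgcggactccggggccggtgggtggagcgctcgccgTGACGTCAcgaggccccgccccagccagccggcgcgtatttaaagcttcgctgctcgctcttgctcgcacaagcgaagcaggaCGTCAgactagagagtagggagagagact
Plk3: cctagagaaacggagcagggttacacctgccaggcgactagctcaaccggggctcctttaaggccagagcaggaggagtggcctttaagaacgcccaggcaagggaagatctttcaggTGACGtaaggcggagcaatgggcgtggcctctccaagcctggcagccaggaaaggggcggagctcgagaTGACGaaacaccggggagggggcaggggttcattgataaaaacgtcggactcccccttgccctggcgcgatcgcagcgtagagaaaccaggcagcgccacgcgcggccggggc
The search covered both strands of all 5 promoters, and the full element contains the short one on each strand. TTTGAA was present in Plk1 alone of the 5, and in 17.9% of 32851 RefSeq promoters of the same length. CCAAT was present in Plk1 and Plk5, and in 37.4% of all promoters. TGACGTCA was present in Plk2 alone of the 5, and in 1.79% of all promoters. TGACG was present in Plk2, Plk3 and Plk4, and in 20.8% of all promoters. The GC box GGGCGG was present in Plk1, Plk2, Plk3 and Plk5, and in 35.7% of all promoters. Neither TGACTCA, the AP-1 site, nor the CArG box bound by serum response factor was found in these 5 windows, against 5.2% and 1.63% of all promoters. These matches describe the letters of the windows only.

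Cells were kept in embryonic stem cell medium with LIF and the FGF receptor inhibitor PD173074 at 250 nM in all 3 groups. In the 4OHT group (n = 3 arrays) and the vehicle group (n = 2 arrays) transcription was blocked with 5 µM actinomycin D, and 30 min later 250 nM 4OHT (4-hydroxytamoxifen) or ethanol was added for 4 h, while the untreated group (n = 3 arrays) received neither. The series title names Erk-regulated mRNA degradation as the subject, and with transcription blocked the comparison of 4OHT with vehicle asks which mRNAs are kept or lost differently under 4OHT. The labels do not give a cell line, a genotype or the protein on which 4OHT acts, and the untreated samples' titles carry the actinomycin D tag although their treatment label reads untreated. The design text gives 3 biological replicates per condition, but the labels do not tie an array to a culture, so p-values measure the spread between these arrays. Fewer cells and less RNA per cell cannot be told apart in such bulk RNA.

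Levels are log2 processed signals from which the 75th percentile of the same array was subtracted, so that 0 stands for that percentile. The number of arrays limits the precision. It was a signal of 180.3 to 208.8 on the 4OHT arrays, 166.3 and 205 on the vehicle arrays and 332.9 to 457.2 on the untreated arrays. Relative to 8 spike-in probes it lay at -5.07 ± 0.25 log2 units with 4OHT (SD, n = 3), -4.77 ± 0.08 with vehicle (n = 2) and -3.49 ± 0.09 untreated (n = 3). The 75th percentile scale therefore compares an mRNA with the other mRNAs of its array, and the spike-in scale compares it with a constant amount of labelled total RNA. The single spike-in probes lay -0.43 to 0.21 around their mean in the 4OHT-minus-vehicle difference and -0.26 to 0.13 in the vehicle-minus-untreated difference. Over all 28493 features tested, the median vehicle-minus-untreated difference was 0.40 on the first scale and -0.88 on the second, and the median 4OHT-minus-vehicle difference was -0.05 and -0.36. Of the features called between vehicle and untreated, 72.3% were higher on the first scale and 0.172% on the second, and between 4OHT and vehicle 26.4% and 3.2%. All 4OHT arrays lay on slide 1 and all vehicle and untreated arrays on slide 2, so slide and 4OHT cannot be told apart. On slide 2 the vehicle arrays lay in row 1 and the untreated arrays in row 2, so row and actinomycin D cannot be told apart there.

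Plk3 was the member with the largest difference between 4OHT and vehicle. Its 4OHT arrays had levels of 2.97, 2.79 and 2.84, its vehicle arrays 0.98 and 0.55, and its untreated arrays 2.57, 2.81 and 2.41. Both vehicle arrays lay far below all others, and the 4OHT arrays lay within or just above the untreated range. The processed signals behind these levels were 1633, 1247 and 1302 with 4OHT, 328.9 and 300.9 with vehicle, and 1970, 3201 and 2153 untreated. The mean level was 2.87 ± 0.09 with 4OHT (SD, n = 3), 0.77 ± 0.30 with vehicle (n = 2) and 2.59 ± 0.20 untreated (n = 3). The 4OHT-minus-vehicle difference of 2.10 ± 0.17 (SE) is 4.28-fold, and 99.9% of all features had a lower one. The vehicle-minus-untreated difference was -1.83 ± 0.17, and the 4OHT-minus-untreated difference was 0.27 ± 0.15. On the spike-in scale Plk3 stood at 40.2% of its untreated level with 4OHT and at 11.6% with vehicle. After actinomycin D, Plk3 mRNA was thus near its untreated level relative to the other mRNAs of the array in the 4OHT group, while per amount of labelled RNA it was below untreated in both treated groups.

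Plk2, the other member known as an early response gene, was also higher with 4OHT than with vehicle. Its 4OHT arrays had levels of -2.17, -2.27 and -2.76, its vehicle arrays -3.11 and -3.79, and its untreated arrays -1.42, -1.22 and -1.39. The 3 groups did not overlap, with vehicle lowest and untreated highest. The 4OHT-minus-vehicle difference was 1.05 ± 0.25 (SE), or 2.07-fold, and 98.8% of all features had a lower one. The vehicle-minus-untreated difference was -2.10 ± 0.25, and the 4OHT-minus-untreated difference was -1.06 ± 0.22. On the spike-in scale Plk2 stood at 16.0% of its untreated level with 4OHT and at 9.60% with vehicle, with a 4OHT-minus-vehicle difference of 0.74 ± 0.31, and there the 4OHT and vehicle arrays overlapped. Its processed signals were low, at 26.9 to 46.3 with 4OHT, 14.9 and 19.3 with vehicle and 124.5 to 196.7 untreated, where the lowest signals well above background on an array were 5.4 to 10.9.

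Plk1, the mitotic kinase, was lower with 4OHT than with vehicle. Its 4OHT arrays had levels of 4.50, 4.24 and 4.26, its vehicle arrays 5.65 and 5.27, and its untreated arrays 6.26, 6.41 and 6.20. The 3 groups did not overlap, in the order 4OHT, vehicle, untreated. The processed signals were 4727, 3400 and 3502 with 4OHT, 8353 and 7896 with vehicle, and 25480, 38730 and 29720 untreated. The 4OHT-minus-vehicle difference was -1.13 ± 0.15 (SE), so that the vehicle level was 2.18-fold the 4OHT level, and 2.49% of all features had a lower difference. The vehicle-minus-untreated difference was -0.83 ± 0.15, and the 4OHT-minus-untreated difference was -1.95 ± 0.14. On the spike-in scale Plk1 stood at 8.62% of its untreated level with 4OHT and at 23.2% with vehicle.

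Plk4, the centriole kinase, was lower in both actinomycin D groups than in untreated cells and near the same level in both. Its 4OHT arrays had levels of -2.07, -2.14 and -1.92, its vehicle arrays -1.97 and -2.06, and its untreated arrays -0.80, -0.55 and -0.90. On the 75th percentile scale the 4OHT and vehicle arrays overlapped, and all of them lay below the untreated arrays. The 4OHT-minus-vehicle difference was -0.03 ± 0.13 (SE), the vehicle-minus-untreated difference was -1.26 ± 0.13 and the 4OHT-minus-untreated difference was -1.29 ± 0.12. On the spike-in scale Plk4 stood at 13.6% of its untreated level with 4OHT and at 17.2% with vehicle, with a 4OHT-minus-vehicle difference of -0.33 ± 0.21. On that scale the Plk4 arrays of these groups did not overlap, at -6.85, -7.32 and -7.17 with 4OHT and -6.79 and -6.77 with vehicle. Its signals were low, at 40.9 to 49.9 with 4OHT, 42.6 and 49.1 with vehicle and 191.2 to 312.4 untreated.

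Plk5 was the only one of the 5 members whose mean was above untreated in both actinomycin D groups on the 75th percentile scale. Its 4OHT arrays had levels of 2.67, 2.06 and 2.12, its vehicle arrays 2.66 and 2.09, and its untreated arrays 1.52, 1.98 and 1.40. The 4OHT and vehicle arrays overlapped, and the untreated arrays lay below both, the highest of them by less than the spread within a group. The 4OHT-minus-vehicle difference was -0.09 ± 0.28 (SE), the vehicle-minus-untreated difference was 0.74 ± 0.28 and the 4OHT-minus-untreated difference was 0.65 ± 0.25. The vehicle-minus-untreated difference of Plk5 was 0.46 without vehicle replicate 1 and 1.03 without vehicle replicate 2. On the spike-in scale Plk5 was lower in the treated groups, at 52.3% of its untreated level with 4OHT and 69.0% with vehicle, so the direction depends on the scale.

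**Figure D1:**
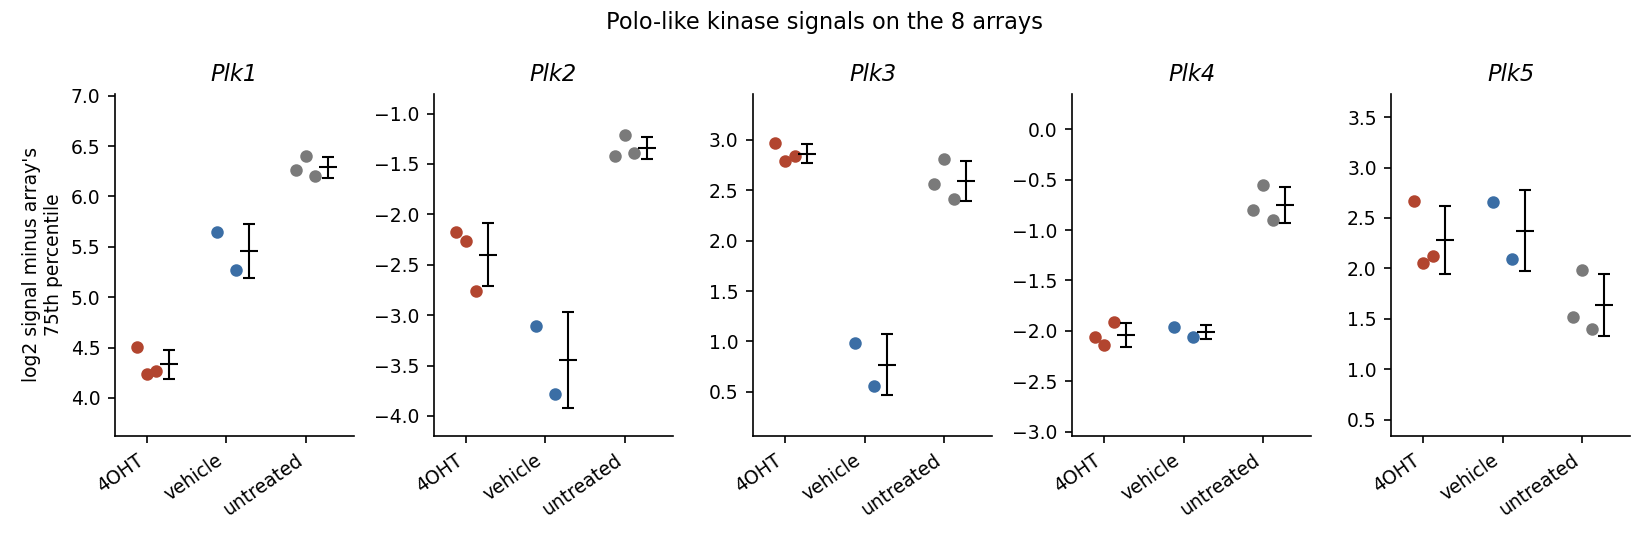
Level of each Polo-like kinase (log2 signal minus the array's 75th percentile, y axis, each panel spanning the same range) on the 4OHT, vehicle and untreated arrays, with group mean and SD. Plk3 is low on the vehicle arrays alone, Plk2 is lowest there, Plk1 is lowest with 4OHT and highest in untreated cells, and Plk4 and Plk5 sit at like levels in both actinomycin D groups.

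Counted over the family, 3 of 5 members had 4OHT and vehicle arrays that did not overlap, namely Plk2 and Plk3 (higher) and Plk1 (lower), where 38.2% of all features did not overlap (13.5% higher, 24.8% lower). Between vehicle and untreated, 5 of 5 members did not overlap, 4 lower and Plk5 higher, where 71.5% of all features did not (51% higher, 20.5% lower). Between 4OHT and untreated, 4 of 5 did not overlap, with Plk3 the exception, where 66.4% of all features did not (45.1% higher, 21.3% lower). The family was chosen on these contrasts, so nothing is read from the counts. On the spike-in scale all 5 members were lower than untreated in both treated groups, with vehicle-minus-untreated differences of -0.54 (Plk5) to -3.38 (Plk2), beside the median of -0.88 over all features.

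**Figure D2:**
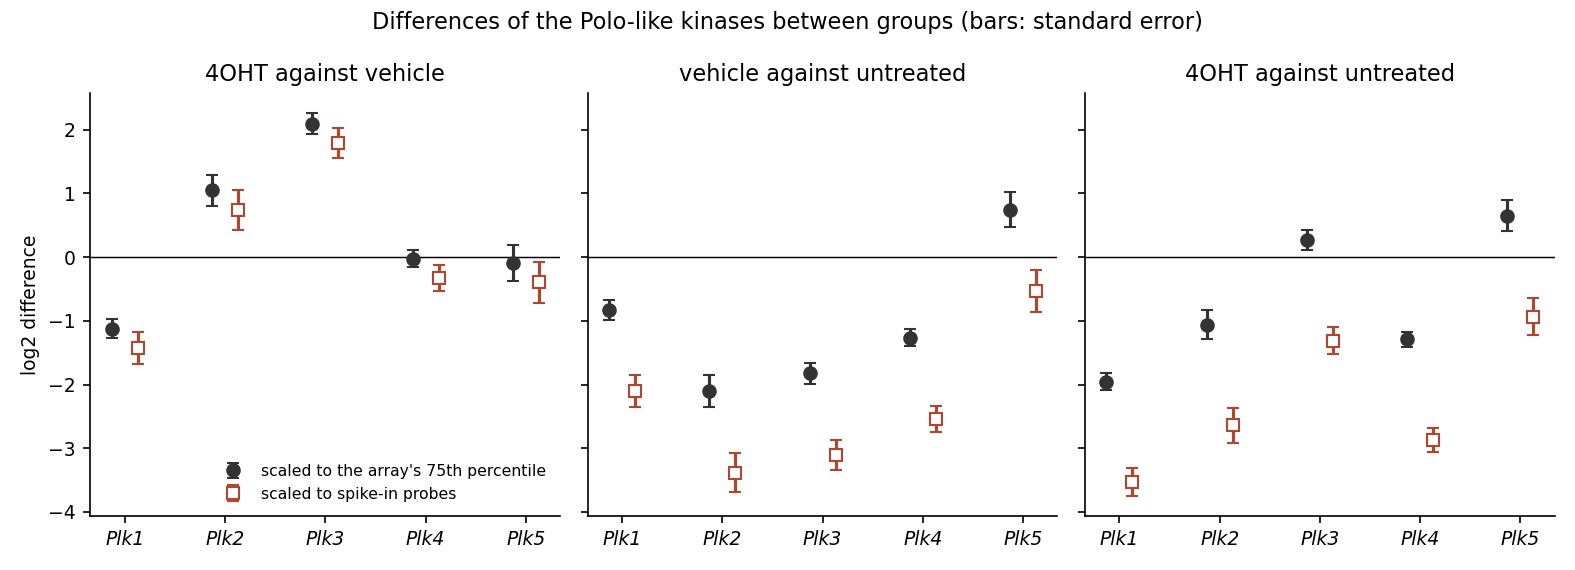
Log2 differences (y axis, bars show the standard error) of Plk1 to Plk5 for 4OHT against vehicle, vehicle against untreated and 4OHT against untreated, on the 75th percentile scale (filled circles) and the spike-in scale (open squares). Plk1 lies below 0 and Plk3 above 0 for 4OHT against vehicle on both scales, while Plk5 against untreated lies above 0 on the first scale and below 0 on the second.

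Differences between members within an array are the same under every scaling that subtracts 1 value from a whole array (75th percentile, spike-in or none). Quantile normalization and normexp do move them. The Plk1 level minus the Plk3 level, set to a mean of 0 in untreated cells, was -2.27 to -2.16 on the 4OHT arrays, 0.97 and 1.02 on the vehicle arrays and -0.10 to 0.09 on the untreated arrays. Relative to each other, these members therefore stood -3.22 log2 units apart in their 4OHT-minus-vehicle differences, and the opposite order in vehicle and 4OHT held on every array. Plk2 and Plk3, the early response pair, differed by -0.28 in their vehicle-minus-untreated differences and by -1.05 in their 4OHT-minus-vehicle differences, Plk2 minus Plk3. For Plk4 and Plk5 the 4OHT-minus-vehicle differences were 0.07 apart and the arrays of the 2 groups overlapped. Over the 8 arrays, the root-mean-square distance between members, each centred on its untreated mean, was smallest for Plk1 and Plk4 (0.477 log2 units) and Plk2 and Plk4 (0.514), and largest for Plk5 with Plk1 and with Plk2 (1.78 each). Plk2 and Plk3 lay 0.842 apart and Plk1 and Plk3 1.45.

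Genes with the most similar pattern were ranked by the same distance among 13187 other genes that were well above background on all 8 arrays. The nearest to Plk3 was Hbegf, an EGF family growth factor, at 0.312, with differences of 2.17 for 4OHT minus vehicle and -2.16 for vehicle minus untreated. Rab3a and Slc43a1 followed at 0.395 and 0.41. The nearest to Plk2 were Znrd1as (0.172), Pik3cb, a catalytic subunit of phosphoinositide 3-kinase (0.186), and Ppp1r15a, a phosphatase subunit of the stress response (0.238). The last had differences of 1.11 for 4OHT minus vehicle and -2.06 for vehicle minus untreated. Plk1 had closer neighbours, namely Gspt2, a translation termination factor (0.0725), Arid1a, a subunit of chromatin remodelling complexes (0.0797), and Prr19 (0.0844). Gspt2 had differences of -1.07 for 4OHT minus vehicle and -0.86 for vehicle minus untreated. Plk4 was nearest to Poc5, a centriole protein (0.114), Zscan21 (0.12) and Akap13 (0.122), and Poc5 had -0.03 and -1.31 in the same order. Plk5 was nearest to St14, a membrane serine protease (0.0528), Glipr2 (0.0664) and Perp, a p53 target of cell junctions (0.0673). Plk3 thus had the farthest and Plk5 the closest nearest neighbour. The points are the same 8 arrays for every gene, and the distances are a description.

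**Figure D3:**
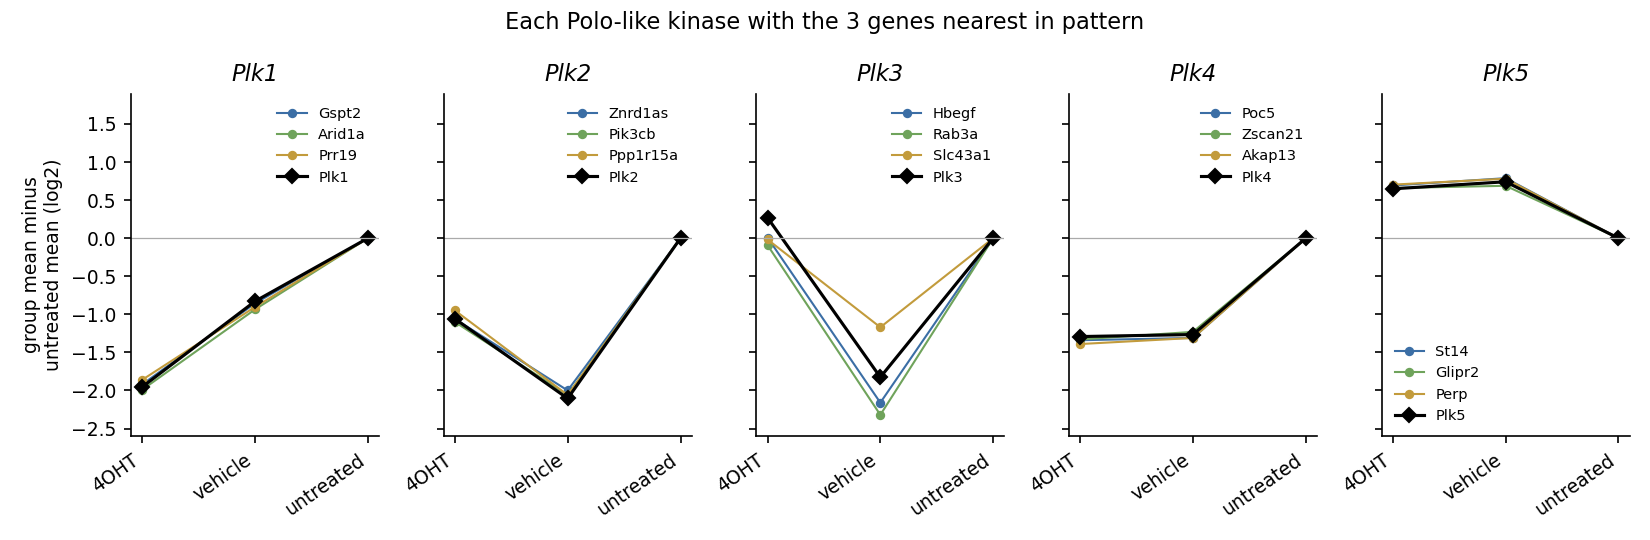
Group means relative to the untreated mean (log2, y axis) for 4OHT, vehicle and untreated arrays (x axis) of each Polo-like kinase (black diamonds) and the 3 genes nearest to it. The lines of Plk1, Plk4 and Plk5 nearly coincide with those of their neighbours, and those of Plk3 spread in the vehicle group, where Slc43a1 lies above it and Hbegf and Rab3a below it.

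Other genes of the Polo-like kinase pathways were followed in 8 lists with 108 genes, 3 of them in 2 lists and all of them measured, and these were tested with limma over all 28493 features. Genes named outside the 3 largest per direction were chosen after their values were seen (Ercc6l between 4OHT and vehicle, and Aurka, Egr1, Ier3, Mdm2 and Gadd45a between vehicle and untreated). The first list holds 11 genes that activate or transcribe Plk1. Between 4OHT and vehicle, 2 of the 11 fell and none rose (at an unadjusted p under 0.05, 3 lower and 0 higher), where 2.58% of all features were called lower and 0.923% higher. Ccna2, the cyclin of S phase and early mitosis, fell by 1.06 ± 0.12 (adjusted p = 0.01), and Lin54, a DNA-binding subunit of the DREAM and MuvB complexes, fell by 0.72 ± 0.13 (adjusted p = 0.037). The list's median was 0.00 beside -0.05 over all features. In vehicle against untreated cells, 4 of the 11 fell and 3 rose, where 15.9% of all features were called lower and 41.5% higher, with a list median of 0.03 beside 0.40. These values rest on the brightest probe of each gene. With a gene's probes averaged, 4 fell and 6 rose, and with quantile normalization 8 fell and 0 rose. The other Ccnb1 probes were at 0.57 and 0.58, beside -0.25 for the brightest. Lin9, another MuvB subunit, fell by 2.27 ± 0.17 (adjusted p = 0.00015), Bora, the cofactor with which Aurora A activates Plk1, fell by 0.53 ± 0.10 (adjusted p = 0.0045), and Aurka itself fell by 0.38 ± 0.11 (adjusted p = 0.02). The Aurka call was lost without untreated replicate 2, at -0.34, and without vehicle replicate 1 or 2, at -0.35 and -0.41. Ccnb2, a B-type cyclin, rose by 0.79 ± 0.10 on the 75th percentile scale (adjusted p = 6e-04) but was at -0.48 on the spike-in scale.

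Of 24 genes known as Plk1 substrates or docking partners, 4 fell and none rose between 4OHT and vehicle (at an unadjusted p under 0.05, 7 lower and 2 higher), with a median of -0.03. Over all features, 2.58% were called lower and 0.923% higher. The 4 called genes were Wee1, a kinase that restrains mitotic entry (-0.99 ± 0.11, adjusted p = 0.0095), Incenp, a scaffold of the chromosomal passenger complex (-0.96 ± 0.13, adjusted p = 0.016), Cdca5, also known as sororin (-0.71 ± 0.11, adjusted p = 0.024), and Ercc6l, the mitotic helicase PICH (-0.69 ± 0.10, adjusted p = 0.019). With vehicle, relative to untreated cells, 6 of the 24 fell and 9 rose, with a median of 0.30. Over all features, 15.9% were called lower and 41.5% higher in that comparison. Wee1 fell by 4.24 ± 0.11 and Fbxo5, an inhibitor of the anaphase-promoting complex, fell by 3.99 ± 0.10 (adjusted p = 3.7e-06 each), and Topors fell by 3.33 ± 0.15 (adjusted p = 1.9e-05). Cdc25b, a phosphatase that opens mitosis, rose by 0.80 ± 0.09 (adjusted p = 0.00051) on the 75th percentile scale and was at -0.48 on the spike-in scale. Beside these, Plk1 itself had -1.13 for 4OHT minus vehicle and -0.83 for vehicle minus untreated. Among 10 genes of the ubiquitin ligases and phosphatase that limit Plk1 and Plk4, 1 rose and none fell between 4OHT and vehicle (at an unadjusted p under 0.05, 1 higher and 3 lower), namely Cdc27, a subunit of the anaphase-promoting complex (0.54 ± 0.10, adjusted p = 0.038). The other Cdc27 probe was at 0.24. Between vehicle and untreated, 6 of these 10 rose and 1 fell, Fbxw11, an F-box protein (-0.65 ± 0.10, adjusted p = 0.0015). Its paralog Btrc rose by 0.94 ± 0.15 (adjusted p = 0.0018) and was at -0.34 on the spike-in scale. The other Btrc probe was at 0.478 on the 75th percentile scale.

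Of 12 genes that work with Plk4 in centriole assembly, 0 were called by limma between 4OHT and vehicle (at an unadjusted p under 0.05, 2 higher and 1 lower), with differences from -0.51 to 0.48 and a median of 0.05, beside -0.03 for Plk4. In vehicle against untreated cells, 3 of the 12 fell and 5 rose, where 15.9% of all features were called lower and 41.5% higher. Stil, which binds and activates Plk4, fell by 2.57 ± 0.29 (adjusted p = 0.00046), Cep152, which recruits Plk4 to the centriole, fell by 1.80 ± 0.13 (adjusted p = 0.00013), and Cenpj, which elongates centrioles, fell by 0.95 ± 0.11 (adjusted p = 0.00056). Pcm1, a protein of centriolar satellites, rose by 0.79 ± 0.11 (adjusted p = 0.00093) and was at -0.48 on the spike-in scale. Plk4 itself had -1.26 in this comparison.

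Of 15 partners and substrates of Plk2 and Plk3, 0 were called by limma between 4OHT and vehicle (at an unadjusted p under 0.05, 1 higher and 1 lower), with differences from -0.35 to 0.40, beside 1.05 for Plk2 and 2.10 for Plk3. With vehicle, relative to untreated cells, 3 of the 15 fell and 8 rose, where 15.9% of all features were called lower and 41.5% higher. Jun, an AP-1 subunit phosphorylated by Plk3, fell by 2.58 ± 0.35 (adjusted p = 0.00084), and Rapgef2, a Rap activator that Plk2 phosphorylates in neurons, fell by 1.27 ± 0.20 (adjusted p = 0.0017). Trp53 rose by 0.85 ± 0.11 (adjusted p = 0.00085) and was at -0.43 on the spike-in scale.

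Plk2 and Plk3 were set beside 19 other early response genes. Between vehicle and untreated, 15 of the 19 fell and 1 rose, where 15.9% of all features were called lower and 41.5% higher. The list's median was -2.94 beside 0.40 over all features, -2.10 for Plk2 and -1.83 for Plk3. Fos, an AP-1 subunit, was at least 10-fold lower in the vehicle group, where it was not well above background on either array (adjusted p = 5.5e-06). Dusp6, an Erk phosphatase, fell by 4.85 ± 0.22 (adjusted p = 2.1e-05) and Myc fell by 4.72 ± 0.13 (adjusted p = 3.7e-06). Ier3 fell by 4.09 ± 0.21 and Egr1, a zinc finger transcription factor, fell by 3.68 ± 0.22. Srf, the serum response factor, rose by 0.54 ± 0.12 (adjusted p = 0.0074) and was at -0.74 on the spike-in scale. Between 4OHT and vehicle, 2 of the 19 passed the test, both higher (at an unadjusted p under 0.05, 4 higher and 1 lower), and the list's median was 0.04. Over all features, 0.923% were called higher and 2.58% lower. Ier3 rose by 1.33 ± 0.21 (adjusted p = 0.025), and Fos had an adjusted p of 0.018 but was well above background on no array of either group, so no fold is given. The Plk3 difference of 2.10 lay above the highest value of this list, 1.33. The family was chosen on this contrast, so nothing is read from that order.

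Of 12 genes of the p53 and DNA damage response, in which Plk2 and Plk3 also take part, 3 rose and 2 fell between 4OHT and vehicle. At an unadjusted p under 0.05, 3 were higher and 3 lower. The list's median was 0.05 beside -0.05 over all features, of which 0.923% were called higher and 2.58% lower. Mdm2, the ligase that limits p53, rose by 0.82 ± 0.13 (adjusted p = 0.024), Gadd45a, a growth arrest gene, by 0.82 ± 0.10 (adjusted p = 0.013), and Cdkn1a, a cyclin-dependent kinase inhibitor, by 0.58 ± 0.11 (adjusted p = 0.044). Bbc3, the cell death activator Puma, fell by 1.54 ± 0.19 (adjusted p = 0.013), and Sesn2, a stress regulator of mTOR signalling, fell by 0.71 ± 0.10 (adjusted p = 0.017). In vehicle against untreated cells, 6 of the 12 fell and 5 rose, where 15.9% of all features were called lower and 41.5% higher. The largest rises were those of Bax (0.99 ± 0.11), Atm (0.82 ± 0.09) and Chek1 (0.77 ± 0.22). On the spike-in scale these 3 genes were at -0.28, -0.46 and -0.51. Cdkn1a fell by 2.84 ± 0.11 (adjusted p = 1.1e-05), Bbc3 fell by 1.75 ± 0.19 (adjusted p = 0.00039) and Sesn2 fell by 1.65 ± 0.10 (adjusted p = 4.9e-05), while Gadd45a and Mdm2 had differences of -1.12 ± 0.10 and -1.07 ± 0.13.

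The last list holds 8 proteins that bind AU-rich elements in mRNA, among them Zfp36 (tristetraprolin), which is known to bind Plk3 mRNA and speed its decay. Between 4OHT and vehicle, 1 of the 8 rose and none fell (at an unadjusted p under 0.05, 2 higher and 0 lower), where 0.923% of all features were called higher and 2.58% lower. The riser was Zfp36l1, a decay factor of the same family (0.99 ± 0.17, adjusted p = 0.031). With vehicle, relative to untreated cells, 3 of the 8 fell and 4 rose, where 15.9% of all features were called lower and 41.5% higher. Zfp36 was at least 3.53-fold lower in the vehicle group, where it was not well above background on either array (adjusted p = 0.00012). Zfp36l2 fell by 2.96 ± 0.09 (adjusted p = 5e-06) and Zfp36l1 fell by 0.83 ± 0.17 (adjusted p = 0.0049). Elavl1 (HuR), which stabilises mRNAs with such elements, rose by 1.05 ± 0.08 (adjusted p = 0.00017) and was at -0.22 on the spike-in scale.

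The 15 list genes named for 4OHT against vehicle rest on the variance shared by the 3 groups. None of the 15 passed the threshold when only the 4OHT and vehicle arrays were fitted, where 18 features were called higher and 48 lower in all, and none without vehicle replicate 1, though all 15 had an unadjusted p under 0.05 in both fits. With no filter on dim probes none passed and with no scaling 1 passed, again with an unadjusted p under 0.05 for all 15. Without vehicle replicate 2, 6 passed, without one of the 4OHT arrays 4 to 9, on the spike-in scale 8, and with a gene's probes averaged 14. All kept their sign under these settings. Against untreated, the 4OHT group, set against the same untreated arrays, had 16 early response genes lower and 1 higher and 8 Plk1 substrates lower and 11 higher, where 18.7% of all features were called lower and 41% higher.

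**Figure D4:**
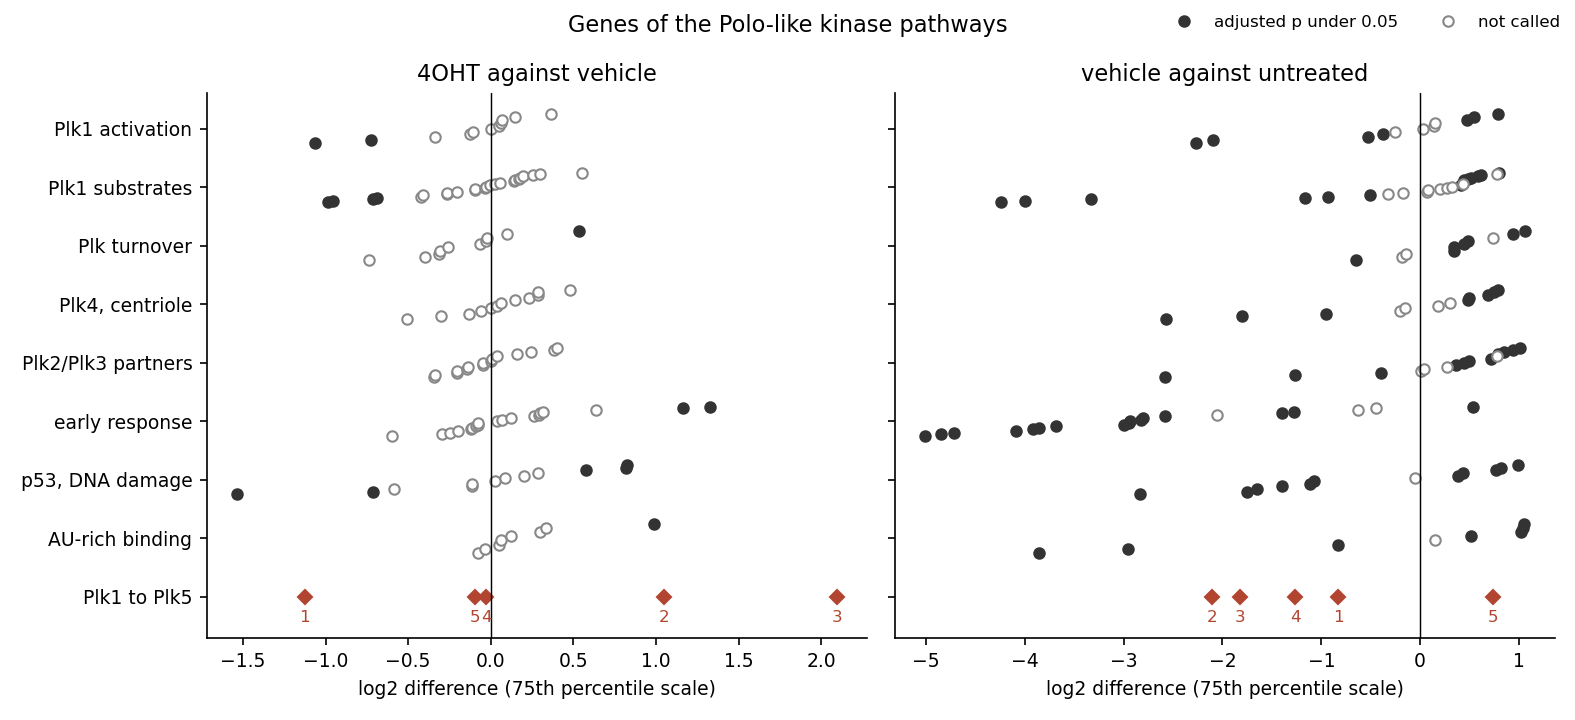
Log2 differences (x axis, 75th percentile scale) of the genes of 8 pathway lists (rows) for 4OHT against vehicle and vehicle against untreated, with filled points for an adjusted p under 0.05, and Plk1 to Plk5 as diamonds labelled by number. In the left panel Plk3 lies to the right of every list gene, and in the right panel the points farthest to the left are early response genes.

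All 10 stem cell markers checked were well above background on every array, with a summed level, in multiples of the array's 75th percentile, of 1087 to 1253 with 4OHT, 1242 to 1312 with vehicle and 912 to 1048 untreated. These sums were led by Dppa5a, with mean levels of 9.3, 9.4 and 8.2. Of the 10 markers, 4 fell and 4 rose between vehicle and untreated, and 5 fell and 4 rose between 4OHT and untreated. Sox2, Klf2, Fgf4 and Zfp42 fell in both, with vehicle-minus-untreated differences of -3.54, -3.71, -3.63 and -1.06. Between 4OHT and vehicle, Fgf4 rose by 1.36, Esrrb fell by 0.63 and 8 were not called. Of 9 fibroblast markers, 5, 5 and 6 were above background on every array of the 4OHT, vehicle and untreated groups, with sums of 4.41 to 4.92, 3.68 to 4.22 and 2.85 to 4.05. Of 8 primitive endoderm markers, 5 were above background on no 4OHT or vehicle array, and the sums were 84.1 to 105, 68.9 to 80.7 and 40.0 to 52.5. Those sums are led by Lama1, a laminin chain, with mean levels of 6.58, 6.21 and 5.46. Against untreated, in the 4OHT group as in the vehicle group, 5 of the 8 markers fell, namely Gata6, Sox17, Sox7, Foxa2 and Pdgfra, and 2 rose, Lama1 and Dab2, both of which were below 0 on the spike-in scale. The sums of 4 trophoblast markers were 0.257 to 0.347, 0.272 to 0.346 and 0.622 to 0.912 in the same order. The part of these markers in the members' values was not tested. The annotated span of Plk3 overlaps that of Tctex1d4 by 84 bases, and the Tctex1d4 probe had signals of 3.35 to 6.49 with 4OHT, 5.19 and 16.2 with vehicle and 4.48 to 15.2 untreated, well above background on 0, 1 and 1 arrays.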

How the data were processed

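Total RNA of mouse embryonic stem cells was extracted, DNase-treated and labelled from 100 ng per sample, per the labels' protocols, and hybridised to 1-colour Agilent arrays. The deposited intensity values are green-channel signals that the authors extracted with Agilent Feature Extraction 11.0.1.1, background-subtracted per the file headers, although the labels name Cy5. The authors' deposited value table held the same signals within 0.005 of their size. From the 59305 non-control spots, outlier spots were dropped, log2 signals of a probe were averaged and the array's 75th percentile was subtracted. Probes were kept where all arrays of 1 group or more had them well above background (33013), and the brightest probe stood for a gene, which left 28493 features. Symbols came from RefSeq (GRCm38.p6) through accessions.

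Group differences were estimated in 1 fit of the 3 groups over 8 arrays with limma 3.58.1 in R 4.3.3 (lmFit and eBayes, two-sided), with Benjamini-Hochberg adjustment over all features and calls under 0.05. A bound ("at least") sets the bright group's mean against the lowest signal well above background. The script was tested on simulated data. The members and gene lists were chosen with earlier results of these data known. Named were all members, the 3 nearest genes of each and up to 3 called genes per direction in a list, of which 1 is not reported here. Same-numbered arrays of different groups did not deviate together throughout. Their correlations were -0.191 to 0.108 with an untreated array, but 0.364 and 0.222 between vehicle and 4OHT. Unlike-numbered vehicle and 4OHT arrays had -0.364 to 0.201. The main fit used no pairing, and the replicate block was run as an alternative. Alternatives were other scaling (spike-in, quantile, none), normexp with offset 50, filters, probe averaging, a variance trend, a fit of 2 groups, a replicate block and leaving out each array.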

Additional observations from a re-analysis of the deposited data

How the results depend on the processing

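For the Polo-like kinases, 4OHT against vehicle kept its sign for Plk1, Plk2 and Plk3 under every alternative run. Plk1 ranged over leave-one-out fits from -1.32 to -0.93, Plk2 from 0.71 to 1.38 and Plk3 from 1.88 to 2.31, while Plk4 and Plk5 crossed 0 (-0.09 to 0.02 and -0.38 to 0.19). Normexp with an offset of 50, which exceeds the Plk2 and Plk4 signals after actinomycin D, gave 0.31 for Plk2 and 1.74 for Plk3, a shrinkage by construction. Against untreated, vehicle values of Plk1 were -1.56 with quantile normalization, and Plk5 was -0.36 with no scaling. Plk2 gave -0.53 and Plk4 -0.67 with normexp. Across all features, 263 were called higher and 734 lower between 4OHT and vehicle. The counts were 17 and 75 with no scaling, 39 and 1179 with spike-in scaling, 25 and 76 with no filter on dim probes, 18 and 48 with only the 2 groups compared, and 8 and 12 with the replicate block, under which none of the 15 named genes of that comparison kept its call. A variance trend gave 414 higher and quantile normalization 485 lower. Leaving out 1 array gave 50 to 201 higher and 81 to 561 lower, lowest without 4OHT replicate 2 (higher) and vehicle replicate 1 (lower), and 42.6% of the calls were higher without vehicle replicate 1. Between vehicle and untreated, 11829 were called higher and 4539 lower, against 19427 higher with normexp, 7426 higher with quantile normalization, 35 and 13091 with no scaling, and 32 and 18532 with spike-in scaling. Between 4OHT and untreated, 11692 were called higher and 5342 lower, against 20020 higher with normexp, 95 and 15796 with no scaling, and 29 and 26624 with spike-in scaling. Genes that rose between vehicle and untreated took the opposite sign with no scaling and with spike-in scaling: Srf -0.56 and -0.74, Ccnb2 -0.30 and -0.48, Cdc25b -0.30 and -0.48, Racgap1 -0.48 and -0.66, Pcm1 -0.30 and -0.48, Trp53 -0.25 and -0.43, Btrc -0.16 and -0.34, and Elavl1 -0.043 and -0.22. Ccnb2 was at -0.024 with quantile normalization. The cause was not tested. Of 37 named genes checked in this comparison, Srf and Racgap1 lost their calls with quantile normalization and Zfp36 with normexp. With no filter on dim probes 2 lost theirs, Aurka among them, and with probe averaging or the replicate block 1 each. Leaving out 1 array cost at most 2 calls. A slide block could not be fitted for 4OHT, since each slide holds it or not, and the low signals of Plk2 and Plk4 limit how well their differences are known.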
